A study of Mus musculus with 9 samples.

Results

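The genes described here are the amino acid transporters of the solute carrier families Slc1, Slc3, Slc7, Slc36, Slc38 and Slc43 in hair follicle stem cells of mice on dietary restriction. They were taken by their gene symbols, a family name followed by a member number, and the rule uses no measured value. Earlier results of these data were known when the families were chosen. The count files hold 42 such symbols among 35006 gene symbols, and 28 of the 42 had enough reads to be tested, among 15447 genes tested.

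A cell takes up and trades amino acids through these carriers. Light chains of the Slc7 family reach the plasma membrane bound to a heavy chain of the Slc3 family and exchange one amino acid for another, while the cationic carriers of Slc7 and the Slc43 carriers work without a heavy chain. Slc1 members move glutamate or small neutral amino acids, Slc38 members move glutamine, alanine and other neutral amino acids with sodium, and Slc36 members, together with some of Slc38, move amino acids with protons or out of lysosomes, where amino acid supply is read by the growth kinase complex mTORC1. The hair follicle bulge holds stem cells that rest for most of the hair cycle and divide when a new hair grows.

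RNA was sequenced from CD34+ alpha6+ bulge cells, sorted by flow cytometry from C57BL/6J mice. The DR group (4 libraries) came from mice given 70% of the food that matched mice ate, and the AL group (5 libraries) from mice fed ad libitum; mice of both groups lived 1 to a cage. Cells of 3 mice were pooled per group, and nothing in the labels says whether each library had its own pool, so p-values measure the spread between these libraries, which may be technical. The labels give no age, sex, irradiation state, hair cycle stage or batch, although the title of the series speaks of irradiation and of quiescence.

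Libraries held 26119459 to 33559312 reads assigned to genes. The gate antigens were abundant: Itga6 had 400 to 425 CPM in DR and 402 to 518 CPM in AL, and Cd34 had 414 to 630 CPM in DR and 531 to 2041 CPM in AL. Cd34, an antigen of the sort, was itself called lower in DR (log2 fold change −1.18, adjusted p = 0.016). Of 16 listed bulge markers, all tested, 9 were lower in DR, Cd34 among them, and 1 was higher, Cd200 (0.66). Npnt fell from a mean of 566 CPM in AL to 70.7 CPM in DR, and Krt5 from 13146 to 6990 CPM, both without overlap. The others lower were Tcf3, Postn, Krt15, Sox9, Krt14 and Fgf18. The part of this shift in the results on transporters was not tested. Levels are CPM throughout, read counts scaled to a common library size with TMM factors, and a log2 fold change is DR over AL with its standard error (SE). The 10 listed markers of cycling cells were all lower in DR, with a mean log2 CPM between −0.90 and 0.94 in DR libraries and between 2.30 and 5.15 in AL libraries, and the lowest AL library was replicate 5. Summed endothelial markers, 6 of 7 of them tested and none called, lay between 6.42 and 51.1 CPM in DR and between 2.30 and 26.3 CPM in AL. Summed immune markers, 6 of 9 tested and none called, lay between 10.7 and 58.1 CPM in DR and between 2.94 and 44.8 CPM in AL. For both of these lists the highest libraries were DR replicates 1 and 2 and AL replicate 1. Summed fibroblast markers did not overlap, at 20.3 to 42.9 CPM in DR and 74.8 to 125 CPM in AL. Of 8 listed, 5 were tested, 1 was higher and 2 were lower. Those lower were the collagen genes Col1a1 (log2 fold change −3.34, adjusted p = 1.6e-04) and Col1a2 (−1.40). The one higher was the scarcer Pdgfra (1.49), with a mean of 3.02 CPM in DR and 1.07 CPM in AL, so the markers did not all move one way. No marker of the cycling, endothelial, immune and fibroblast lists was at 0 in all libraries. Summed markers of differentiated epidermis were far higher than these and overlapped, at 2392 to 5807 CPM in DR and 2109 to 4888 CPM in AL. Of these 7 markers, all tested, Sbsn and Krtdap were higher (log2 fold changes 0.39 and 0.58) and 0 were lower. The part of other cell types in the results on transporters was not tested.

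The largest rises were in carriers of large neutral amino acids such as leucine and phenylalanine: Slc43a2, Slc7a8 and Slc43a1 rose in DR by log2 fold changes of 2.68, 2.46 and 2.04. The heavy chain Slc3a2 and the lysosomal Slc38a9 also rose, and the cationic carrier Slc7a2 and the neutral carrier Slc38a4 fell. The fall of Slc7a2, with a log2 fold change of −2.71, was the largest difference of any member in either direction. At an adjusted p under 0.05 (edgeR), 8 of the 28 tested members were higher in DR and 7 were lower. Together 53.6% of the tested members were called, beside 40.7% of all tested genes (19.0% higher and 21.7% lower), so the share is not far from that of the whole comparison. The median log2 fold change was 0.18 over members and −0.02 over all tested genes, and the median size without its sign was 0.55 over members and 0.34 over all. The CPM of the groups did not overlap for 11 members (39.3%), beside 32.9% of all tested genes. Called differences of at least 2-fold were seen for 4 members that were higher (Slc43a2, Slc7a8, Slc43a1 and Slc3a1), beside 3.99% of all tested genes, and for 3 that were lower (Slc7a2, Slc38a4 and Slc38a3), beside 7.48%. Of these, Slc3a1 passed the filter on low counts through the DR libraries alone, so its place in this and the counts above carries no weight. In a bulk sample, a level that differs because fewer cells of a type were present cannot be told apart from one that differs because each cell held less RNA.

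By family, 2 of the 3 tested Slc43 genes and both Slc3 genes rose, and no member of either fell, but 1 of the Slc3 genes, Slc3a1, was tested only because it passed the filter on low counts in DR. In Slc7, 2 of 9 tested genes rose and 3 fell. In Slc38, 1 of 7 rose and 4 fell. A single Slc1 gene of 5 rose, and neither tested Slc36 gene was called.

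**Figure D1:**
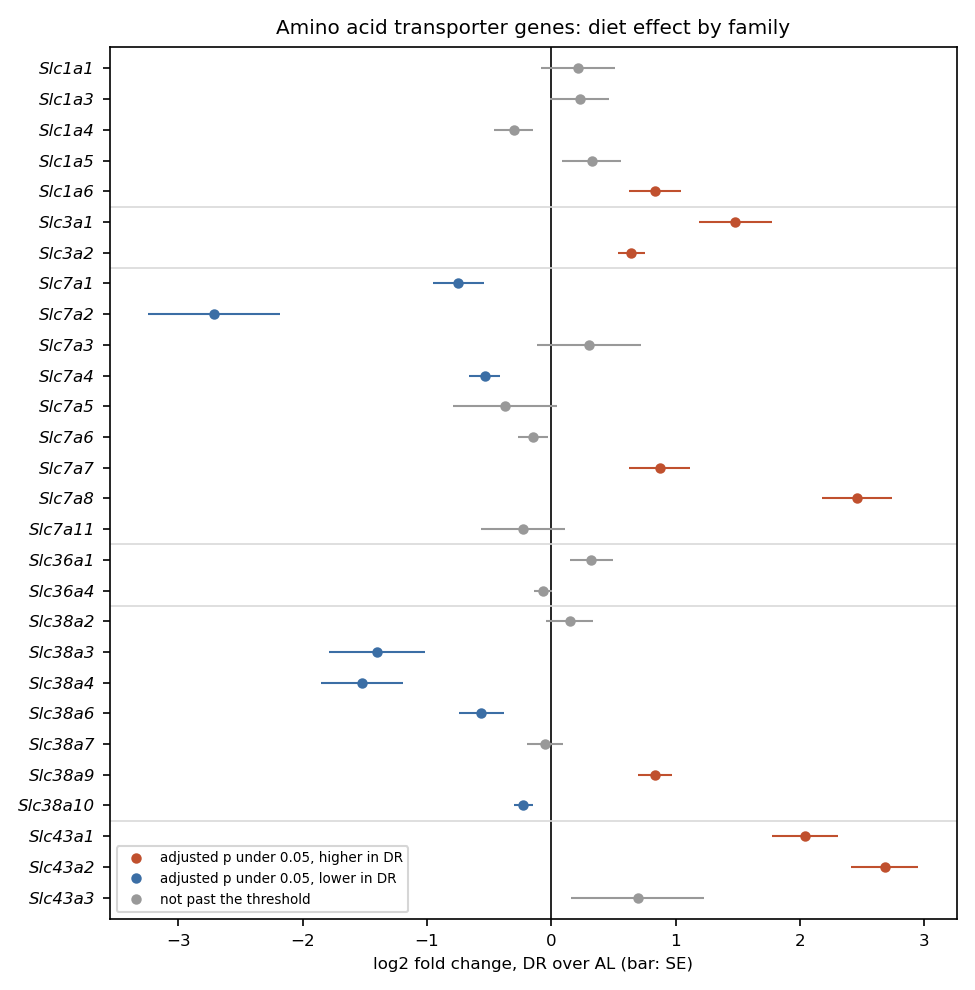
Log2 fold change, DR over AL, of the 28 tested members, from top to bottom by family (Slc1, Slc3, Slc7, Slc36, Slc38, Slc43), with bars of 1 SE. Orange points are members called higher in DR and blue points members called lower in DR at an adjusted p under 0.05. The 3 points farthest to the right are Slc43a2, Slc7a8 and Slc43a1, and the point farthest to the left is Slc7a2.

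Slc43a2 encodes LAT4, which lets branched-chain amino acids, phenylalanine and methionine cross the plasma membrane by facilitated diffusion. Its level was 108, 119, 117 and 119 CPM in the DR libraries and 19.3, 23.7, 26.5, 10.7 and 9.71 CPM in the AL libraries. All DR libraries lay far above all AL libraries, and the DR values were close together. The fitted difference was 6.43-fold (log2 fold change 2.68, SE 0.27, adjusted p = 5.5e-05). On the genome, 9.18% of its exon bases overlap an antisense transcript, Gm45606, from which an unstranded library cannot separate it.

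Slc7a8 encodes LAT2, a light chain that exchanges large and small neutral amino acids. Its level was 306, 283, 135 and 214 CPM in the DR libraries and 67.3, 28.3, 32.9, 45.5 and 39.5 CPM in the AL libraries. The groups did not overlap, the DR libraries spread by more than 100 CPM, and DR replicates 1 and 2 and AL replicate 1 were the highest of their groups. The fitted difference was 5.50-fold (log2 fold change 2.46, SE 0.28, adjusted p = 1.1e-04).

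Slc43a1 encodes LAT3, the closest relative of LAT4, with a like choice of substrates. Its level was 133, 142, 86.7 and 68.6 CPM in the DR libraries and 36.3, 17.7, 24.7, 33.0 and 18.7 CPM in the AL libraries. Again the groups did not overlap, and DR replicates 1 and 2 and AL replicate 1 were highest. The fitted difference was 4.12-fold (log2 fold change 2.04, SE 0.27, adjusted p = 2.3e-04). The libraries that were highest for Slc7a8 and Slc43a1 were also those highest for the endothelial and immune markers given above. Without these 3 libraries the log2 fold changes were 2.26 for Slc7a8, 1.72 for Slc43a1 and 2.74 for Slc43a2, each still called.

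Slc7a5 encodes LAT1, the light chain through which many dividing cells take up leucine. It had 56.6, 15.7, 23.0 and 30.6 CPM in the DR libraries and 23.8, 37.97, 33.0, 82.8 and 26.0 CPM in the AL libraries. The groups overlapped over most of their range, with DR replicate 1 and AL replicate 4 standing high, and the gene was not called (log2 fold change −0.37, SE 0.42, adjusted p = 0.51). When AL replicate 4 was left out, the difference was 0.06 on that scale. Within each library the Slc7a5 count per Slc7a8 count was 0.185, 0.0556, 0.170 and 0.143 in DR and 0.354, 1.34, 1.004, 1.82 and 0.659 in AL. The ratio of the LAT1 gene to the LAT2 gene was thus lower in every DR library than in every AL library. The group means differed by 2.83 on the log2 scale (exact two-sided permutation test, p = 0.0159, adjusted p = 0.0437 over 11 pairs of members).

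**Figure D2:**
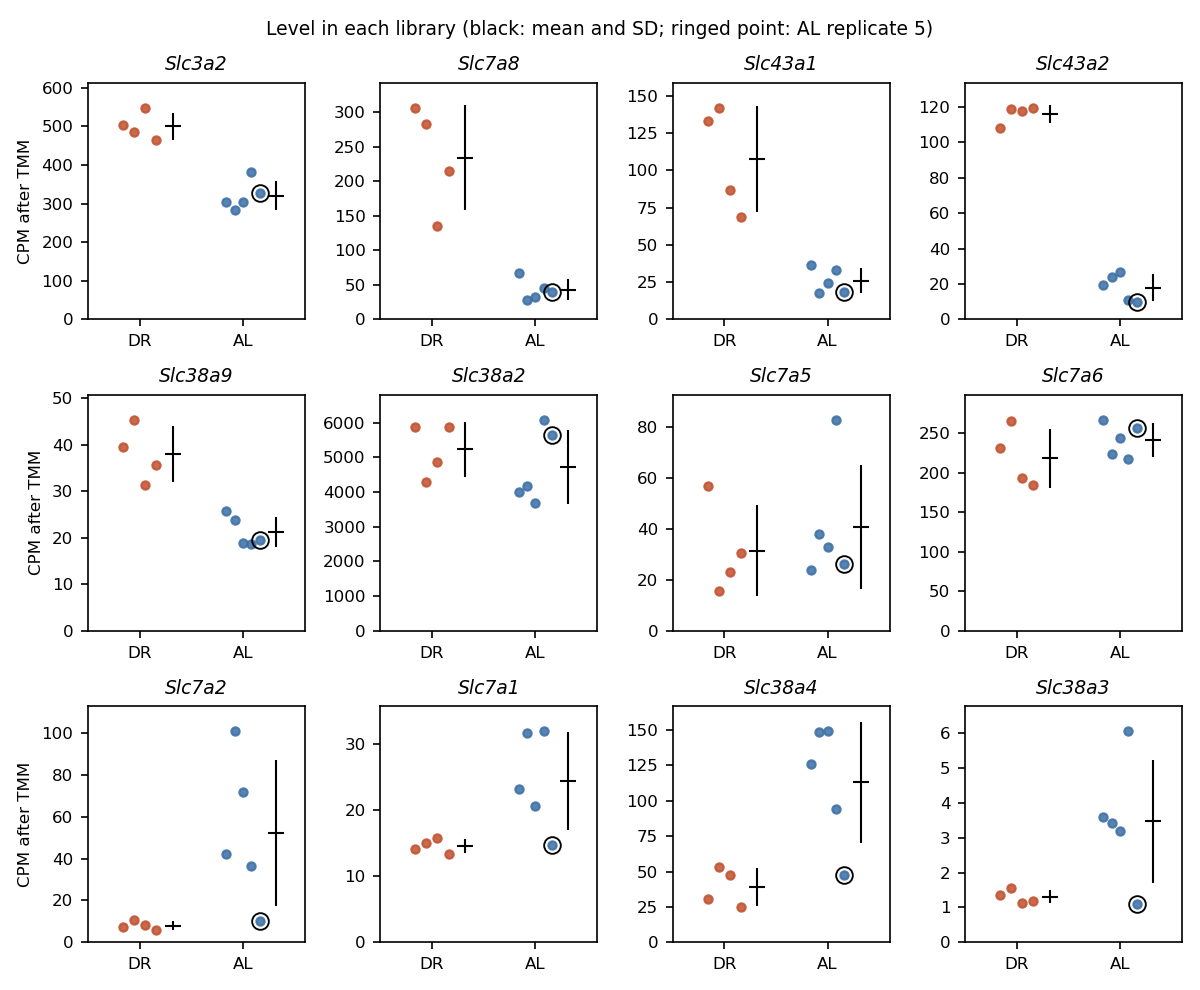
CPM after TMM scaling in each library for 12 members, DR in orange on the left of each panel and AL in blue on the right, with the mean and SD in black and a ring around AL replicate 5. In the top row DR lies above AL in every panel without overlap; in the bottom row the ringed library lies within or next to the DR range for Slc7a2, Slc7a1, Slc38a4 and Slc38a3.

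Levels of different genes were compared per kilobase of merged exons (GENCODE M21, which may not be the annotation the authors counted with). On that scale the 4 carriers of system L, the classical name for sodium-independent uptake of large neutral amino acids, summed to 60.1 to 110 CPM per kb in DR libraries and 19.2 to 38.3 CPM per kb in AL libraries. The share of Slc7a8 in that sum was 53.9% ± 6.01 in DR and 33.7% ± 10.3 in AL (SD, n = 4 and 5). The share of Slc7a5 was 9.88% ± 3.99 in DR and 41.1% ± 13.2 in AL, and Slc7a5 exceeded Slc7a8 in none of the 4 DR libraries and in 3 of the 5 AL libraries. Slc43a1 held 21.9% in DR and 17.7% in AL, and Slc43a2 held 14.3% in DR and 7.50% in AL. These shares depend on the exon lengths and carry no test. Among the 28 members ordered by level per kb, Slc7a8 was at place 4 in DR and place 7 in AL, Slc43a1 at place 5 in DR and 14 in AL, and Slc43a2 at place 7 in DR and 18 in AL.

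The start regions of the 3 genes that rose most are printed first, followed by those of 3 members with other behaviour, the weakly expressed Slc7a7, which rose, and Slc7a1 and Slc38a4, which fell. Each runs from 250 bases before to 50 bases after a RefSeq transcript start (GRCm38.p6) in the direction of the gene, and capitals mark the motifs searched on both strands. Slc43a2 is at chr11:75531444-75531743 on the plus strand, Slc43a1 at chr2:84840073-84840372 on the plus strand and Slc7a8 at chr14:54781837-54782136 on the minus strand. Slc7a7 is at chr14:54417895-54418194, Slc7a1 at chr5:148399855-148400154 and Slc38a4 at chr15:97055907-97056206, all on the minus strand.
Slc43a2: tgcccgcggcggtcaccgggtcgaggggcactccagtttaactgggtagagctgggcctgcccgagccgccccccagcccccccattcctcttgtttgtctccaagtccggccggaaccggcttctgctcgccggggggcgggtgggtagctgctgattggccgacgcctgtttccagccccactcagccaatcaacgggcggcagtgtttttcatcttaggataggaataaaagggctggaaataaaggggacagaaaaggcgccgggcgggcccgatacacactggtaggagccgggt
Slc43a1: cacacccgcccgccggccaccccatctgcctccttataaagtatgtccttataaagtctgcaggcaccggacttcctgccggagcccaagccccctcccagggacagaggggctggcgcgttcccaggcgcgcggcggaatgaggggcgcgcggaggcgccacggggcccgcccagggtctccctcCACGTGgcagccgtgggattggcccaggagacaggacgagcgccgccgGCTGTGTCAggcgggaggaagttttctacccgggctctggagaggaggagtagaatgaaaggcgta
Slc7a8: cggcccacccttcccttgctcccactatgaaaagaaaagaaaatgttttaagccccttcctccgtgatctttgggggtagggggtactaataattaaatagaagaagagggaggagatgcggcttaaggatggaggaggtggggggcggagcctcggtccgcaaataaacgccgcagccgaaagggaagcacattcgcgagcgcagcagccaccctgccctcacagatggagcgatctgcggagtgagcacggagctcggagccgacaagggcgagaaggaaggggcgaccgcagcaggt
Slc7a7: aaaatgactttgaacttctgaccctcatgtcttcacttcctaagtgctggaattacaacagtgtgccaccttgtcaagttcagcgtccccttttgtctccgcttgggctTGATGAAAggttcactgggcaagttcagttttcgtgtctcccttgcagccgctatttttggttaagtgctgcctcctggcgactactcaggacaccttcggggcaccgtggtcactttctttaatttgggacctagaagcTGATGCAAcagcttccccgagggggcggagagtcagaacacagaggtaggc
Slc7a1: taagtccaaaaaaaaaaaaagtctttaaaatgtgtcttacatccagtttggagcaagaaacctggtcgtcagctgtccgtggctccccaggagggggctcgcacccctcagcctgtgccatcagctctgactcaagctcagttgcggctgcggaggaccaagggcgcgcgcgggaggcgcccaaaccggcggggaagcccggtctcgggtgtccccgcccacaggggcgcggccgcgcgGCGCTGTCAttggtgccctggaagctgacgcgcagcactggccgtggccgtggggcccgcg
Slc38a4: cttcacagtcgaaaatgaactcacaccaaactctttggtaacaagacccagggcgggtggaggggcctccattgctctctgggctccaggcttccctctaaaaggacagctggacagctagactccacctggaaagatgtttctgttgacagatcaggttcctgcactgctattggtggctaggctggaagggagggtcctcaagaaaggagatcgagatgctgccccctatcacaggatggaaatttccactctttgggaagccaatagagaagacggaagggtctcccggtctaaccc

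The motifs were the element of the amino acid starvation factor ATF4 (TGATGNAA), the E-box bound by MYC and by the lysosomal factors TFEB and TFE3 (CACGTG), the glucocorticoid response element (AGAACA, then any 3 bases, then TGTTCT) and the antioxidant response element (TGACNNNGC). The table held 30 start regions for 21 of the 28 tested members. The ATF4 element was in 4 of these 30, belonging to Slc1a4, Slc7a11 and Slc7a7, and in 3.97% of all 32851 start regions. In the printed region of Slc7a7 it began 141 bases and 1 base before the start. The E-box was in 4 of the 30 (Slc1a6, Slc36a1, Slc38a7 and Slc43a1) and in 7.15% of all; in Slc43a1 it began 64 bases before the start. The antioxidant element was in 6 of the 30, belonging to 5 genes, and in 12.4% of all, and in Slc43a1 and Slc7a1 it began 16 and 11 bases before the start. The glucocorticoid element was in none of the 30 and in 0.00913% of all. The printed regions of Slc43a2, Slc7a8 and Slc38a4 held none of the 4 motifs. The start regions of members had a median GC content of 59.3% and 15.5 CpG dinucleotides, against 52.7% and 7 over all start regions. Of the printed regions, Slc43a1 had the highest GC content, 67.7%, and Slc7a7 the lowest, 51.0%.

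Slc3a2 encodes CD98hc, the heavy chain that carries LAT1, LAT2, the y+LAT exchangers and the cystine exchanger xCT to the plasma membrane and also binds integrins. Its level was 503, 485, 546 and 464 CPM in the DR libraries and 303, 284, 305, 381 and 326 CPM in the AL libraries. All DR libraries were above all AL libraries, and the spread within each group was small. The fitted difference was 1.56-fold (log2 fold change 0.64, SE 0.11, adjusted p = 8.8e-04). Per kb it was the second most abundant member in both diets, with 142 CPM per kb in DR and 90.7 CPM per kb in AL.

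The other heavy chain, Slc3a1, encodes rBAT, which in kidney and gut pairs with the light chain Slc7a9 for uptake of cystine and basic amino acids. It was near the detection limit, at 0.752 ± 0.186 CPM in DR and 0.267 ± 0.0866 CPM in AL (SD, n = 4 and 5), and was called higher (log2 fold change 1.48, SE 0.29, adjusted p = 0.0025). It passed the filter on low counts through the DR libraries alone, 4 of 4 in DR and 1 of 5 in AL being above the limit, so a tested Slc3a1 had to be higher in DR and its call carries no weight. Of its exon bases 26.5% overlap Prepl on the other strand, and Prepl was lower in DR (log2 fold change −0.49, adjusted p = 0.0064). Slc7a9 itself had 5 reads in all DR libraries together and 2 in all AL libraries together, and Slc7a13, another partner of rBAT in mouse kidney, had none.

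Of the light chains that bind CD98hc, Slc7a6 encodes y+LAT2, which exchanges cationic for neutral amino acids and in the brain releases arginine against glutamine. It had 232, 265, 193 and 184 CPM in the DR libraries and 267, 224, 244, 217 and 257 CPM in the AL libraries. The groups overlapped and the gene was not called (log2 fold change −0.15, SE 0.12, adjusted p = 0.37). Its count per Slc3a2 count was 0.461, 0.546, 0.353 and 0.396 in DR and 0.879, 0.787, 0.801, 0.569 and 0.788 in AL. Every DR ratio was below every AL ratio, and the group means differed by 0.81 on the log2 scale (exact two-sided permutation test, p = 0.0159, adjusted p = 0.0437). The light chain transcript and its heavy chain transcript thus did not move alike.

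Slc7a7, which encodes y+LAT1, the epithelial counterpart of Slc7a6, was scarce and rose: 1.69 ± 0.242 CPM in DR and 0.923 ± 0.282 CPM in AL (SD, n = 4 and 5; log2 fold change 0.87, SE 0.24, adjusted p = 0.015). Without DR replicates 1 and 2 its log2 fold change was 0.74 and no longer called (adjusted p = 0.10). Its exons share 7.0% of their bases with Oxa1l on the other strand. Oxa1l was itself higher in DR (log2 fold change 0.41, adjusted p = 0.0091). The part of Oxa1l reads in the Slc7a7 counts was not tested. The count of Slc7a6 per count of Slc7a7 lay between 113 and 154 in DR and between 192 and 350 in AL, a difference of −1.05 on the log2 scale (exact two-sided permutation test, p = 0.0159, adjusted p = 0.0437). Slc7a11 encodes xCT, which imports cystine for glutathione in exchange for glutamate. It had 0.360, 0.539, 0.714 and 0.742 CPM in the DR libraries and 0.903, 0.571, 0.335, 0.686 and 0.979 CPM in the AL libraries. These values overlapped and were close to the limit of detection, and the gene was not called (log2 fold change −0.23, SE 0.34, adjusted p = 0.62).

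Taking the 5 tested light chains of CD98hc per kb as 100%, Slc7a8 held 44.4% ± 5.87 in DR and 11.6% ± 3.28 in AL (SD, n = 4 and 5). The share ran from 35.6% to 47.9% over DR libraries and from 8.68% to 17.1% over AL libraries. Slc7a6 held 46.9% ± 6.81 in DR and 73.0% ± 7.55 in AL, and Slc7a5 held 8.17% ± 3.49 in DR and 14.9% ± 7.94 in AL. Slc7a7 and Slc7a11 each stayed under 1% in both diets. By group means of these RNA levels the light chain pool was thus Slc7a6 and Slc7a8 in nearly equal parts in DR, and mostly Slc7a6 in AL. Single DR libraries varied: Slc7a6 and Slc7a8 held 39.7% and 47.9% in DR replicate 1, and 55.5% and 35.6% in DR replicate 3. The summed level of the 5 light chains lay between 76.1 and 128 CPM per kb in DR and between 65.1 and 79.2 CPM per kb in AL, and the lowest DR library was below 2 AL libraries.

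**Figure D3:**
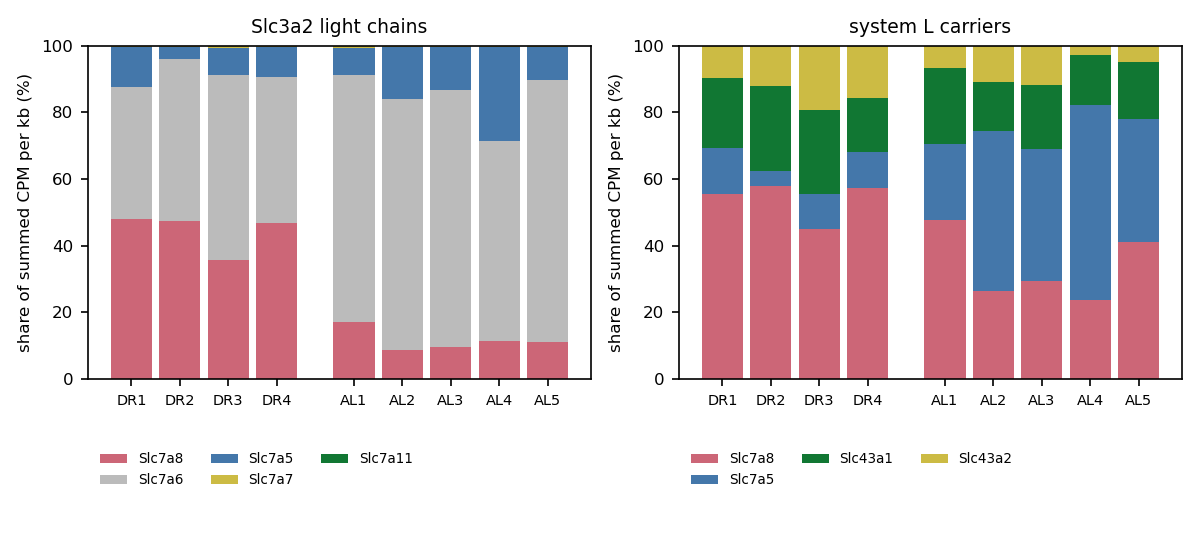
Shares of the Slc3a2 light chains (left panel) and of the system L carriers (right panel), in percent of their summed CPM per kb, stacked for each library with DR left of AL. Among light chains the Slc7a8 part takes 35.6% to 47.9% of each DR bar and 8.68% to 17.1% of each AL bar, and among system L carriers the Slc7a5 part takes 4.35% to 13.8% of each DR bar and 22.8% to 58.3% of each AL bar.

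The cationic carriers import arginine, lysine and ornithine. Slc7a2 encodes CAT2, whose variants serve arginine supply in liver and in activated immune cells. It had 7.19, 10.8, 8.16 and 5.71 CPM in the DR libraries and 42.2, 100.7, 71.5, 36.4 and 10.2 CPM in the AL libraries. The AL libraries spread widely, and AL replicate 5 lay inside the DR range. The fitted difference was the steepest fall among the members, 6.55-fold (log2 fold change −2.71, SE 0.53, adjusted p = 0.0022).

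Slc7a1 encodes CAT1, the cationic carrier found in most dividing cells and also the receptor of ecotropic murine leukaemia viruses. It had 14.1, 14.9, 15.7 and 13.4 CPM in the DR libraries and 23.2, 31.6, 20.6, 31.9 and 14.6 CPM in the AL libraries. The DR values were close together, and AL replicate 5 again lay among them. The gene fell by 0.75 on the log2 scale (SE 0.21, adjusted p = 0.014). Without DR replicates 1 and 2 the adjusted p was 0.077, and without AL replicate 1 as well it was 0.11, with log2 fold changes of −0.74 and −0.76.

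Slc7a3, the brain-enriched cationic carrier CAT3, was near 1 CPM in both diets and not called (log2 fold change 0.30, SE 0.42, adjusted p = 0.60). Slc7a4 resembles the CAT genes in sequence, but no transport activity of its own is established. It had 6.40, 7.63, 6.73 and 6.00 CPM in the DR libraries and 10.4, 9.49, 10.2, 8.58 and 9.90 CPM in the AL libraries, without overlap (log2 fold change −0.54, SE 0.12, adjusted p = 0.0059). Of its exon bases 13.3% overlap P2rx6 on the other strand, and P2rx6 was higher in DR (log2 fold change 1.25, adjusted p = 0.0021).

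The 3 CAT genes summed to 2.22 to 2.65 CPM per kb in DR and 2.51 to 14.1 CPM per kb in AL. Slc7a2 made up 35.8% ± 6.92 of that sum in DR and 65.4% ± 14.9 in AL, while Slc7a1 made up 52.4% ± 3.14 in DR and 31.4% ± 13.7 in AL (SD, n = 4 and 5). The ratio of Slc7a1 to Slc7a2 was 1.38 to 2.34 in DR and 0.288 to 1.43 in AL, a difference of 1.70 on the log2 scale that did not pass (exact two-sided permutation test, p = 0.0317, adjusted p = 0.0698).

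AL replicate 5, the AL library with the lowest level of cycling markers, lay within or past the DR range for 4 of the 7 members that fell (Slc7a2, Slc7a1, Slc38a4 and Slc38a3) and for 0 of the 8 that rose. Without it the log2 fold changes were −2.98 for Slc7a2, −0.89 for Slc7a1, −1.72 for Slc38a4 and −1.62 for Slc38a3, and 2.53 for Slc43a2, 2.43 for Slc7a8 and 1.95 for Slc43a1. The part of the share of cycling cells in these differences was not tested. AL replicate 5 also stood apart over all tested genes. On their second principal component, an axis of spread between libraries, it was at −56.2 and the other AL libraries at −6.54 to 22.5. How often it lies in the DR range over all called genes was not counted, so the pattern may not be particular to these members.

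**Figure D4:**
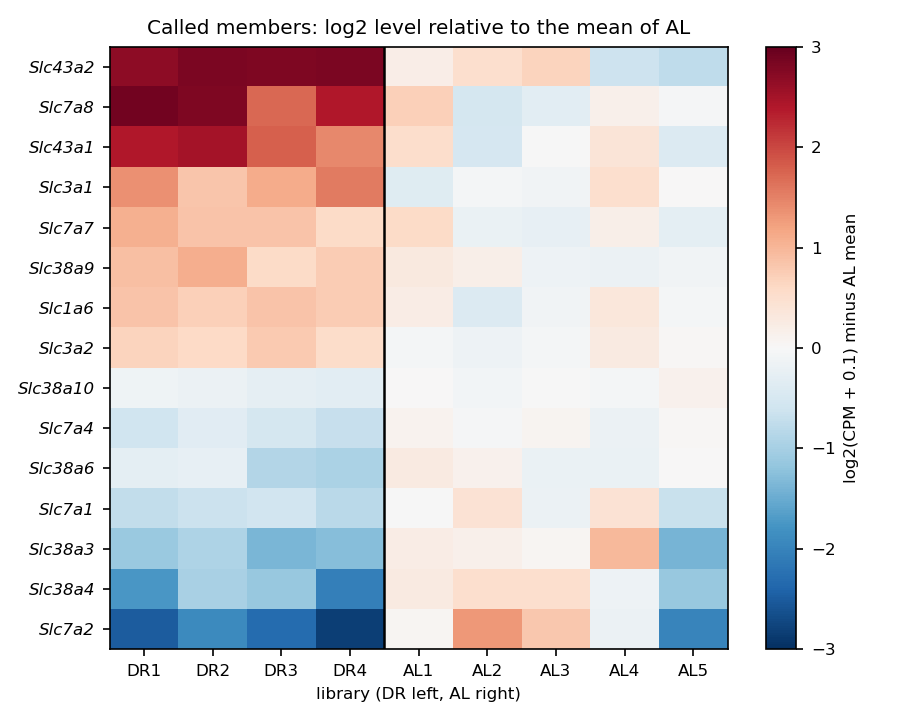
Level of each of the 15 called members in each library, DR libraries on the left and AL libraries on the right, as log2(CPM + 0.1) minus the AL mean of the gene (red above it, blue below it), with members that rose above those that fell. AL replicate 5, in the last column, is low like the DR libraries for Slc7a2, Slc7a1, Slc38a4 and Slc38a3.

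Slc38a2 encodes SNAT2, the sodium-coupled carrier of system A that takes up alanine, serine and glutamine and is known to be induced when amino acids run short. It was by far the most abundant member per kb in both diets, at 591 CPM per kb in DR and 534 CPM per kb in AL. Its level was 5880, 4298, 4863 and 5862 CPM in the DR libraries and 3999, 4177, 3691, 6078 and 5647 CPM in the AL libraries. The groups overlapped throughout, and the gene was not called (log2 fold change 0.15, SE 0.19, adjusted p = 0.57). Slc38a1, the other main system A gene, had 32 reads over the 4 DR libraries and 27 over the 5 AL libraries and was not tested.

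Slc38a4 encodes SNAT4, a liver-enriched system A carrier that is imprinted in the mouse. It had 31.0, 53.4, 47.8 and 25.3 CPM in the DR libraries and 125.8, 148, 149, 94.0 and 47.8 CPM in the AL libraries. AL replicate 5 lay within the DR range and the other 4 AL libraries lay above it. The gene fell 2.87-fold (log2 fold change −1.52, SE 0.33, adjusted p = 0.0040). Slc38a1, Slc38a2 and Slc38a4 are neighbours on chromosome 15 with no coding gene between them in the RefSeq annotation.

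Slc38a3 encodes SNAT3, a system N carrier that moves glutamine in either direction in liver, kidney and brain. At 1.37, 1.56, 1.13 and 1.19 CPM in the DR libraries and 3.58, 3.43, 3.18, 6.04 and 1.09 CPM in the AL libraries it was scarce, and AL replicate 5 was lower than every DR library. It fell by 1.40 on the log2 scale (SE 0.39, adjusted p = 0.014). That call was lost without DR replicates 1 and 2 (adjusted p = 0.055) and without AL replicate 1 as well (adjusted p = 0.087), with log2 fold changes of −1.57 and −1.56.

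Slc38a6 and Slc38a10 are members whose transport is less well defined. Slc38a6 had 12.3, 12.7, 8.08 and 7.77 CPM in the DR libraries and 18.02, 16.4, 13.1, 13.0 and 15.1 CPM in the AL libraries, with the nearest values of the groups almost touching. It fell by 0.57 on the log2 scale (SE 0.18, adjusted p = 0.028), but not past the threshold without AL replicate 1 (adjusted p = 0.065), AL replicate 2 (0.062), DR replicate 3 (0.088) or DR replicate 4 (0.081). Slc38a10 had 113, 109, 104 and 98.9 CPM in the DR libraries and 125, 118, 123, 119 and 135 CPM in the AL libraries. These groups did not overlap, but the difference was small, −0.23 on the log2 scale (SE 0.08, adjusted p = 0.035). It missed the threshold when AL replicate 1, 2, 3 or 5 or DR replicate 2, 3 or 4 was left out, with adjusted p between 0.054 and 0.11.

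Slc38a9 encodes SNAT9, a lysosomal membrane protein that senses luminal arginine for mTORC1 and releases essential amino acids such as leucine from the lysosome. It had 39.6, 45.4, 31.4 and 35.7 CPM in the DR libraries and 25.8, 23.8, 18.9, 18.6 and 19.5 CPM in the AL libraries. All DR libraries were above all AL libraries, a 1.78-fold difference (log2 fold change 0.83, SE 0.13, adjusted p = 7.5e-04). Slc38a7 encodes SNAT7, which exports glutamine and asparagine from lysosomes. It averaged 19.6 ± 3.06 CPM in DR and 20.3 ± 3.36 CPM in AL (SD, n = 4 and 5) and was not called (log2 fold change −0.05, SE 0.14, adjusted p = 0.79). The count of Slc38a9 per count of Slc38a7 was 2.17, 1.88, 1.68 and 2.06 in DR and 1.17, 1.13, 1.06, 1.15 and 0.792 in AL. Every DR ratio was above every AL ratio, and the group means differed by 0.88 on the log2 scale (exact two-sided permutation test, p = 0.0159, adjusted p = 0.0437).

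Slc36a1 encodes PAT1, a carrier that moves small neutral amino acids with protons across the lysosomal and plasma membranes, and Slc36a4 encodes its high-affinity relative PAT4. Slc36a1 averaged 33.6 ± 5.68 CPM in DR and 26.9 ± 6.19 CPM in AL and was not called (log2 fold change 0.32, SE 0.17, adjusted p = 0.16). Slc36a4 averaged 48.6 ± 2.09 CPM in DR and 51.0 ± 3.02 CPM in AL and was not called either (log2 fold change −0.07, SE 0.07, adjusted p = 0.48; SD, n = 4 and 5 for both genes). Their ratio differed by 0.41 on the log2 scale and did not pass (exact two-sided permutation test, p = 0.111, adjusted p = 0.136).

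In the Slc1 family, Slc1a5 encodes ASCT2, the exchanger through which many proliferating cells take up glutamine. It had 59.9, 28.2, 26.6 and 36.7 CPM in the DR libraries and 30.5, 32.1, 24.0, 40.3 and 24.2 CPM in the AL libraries. Apart from the high value of DR replicate 1 the groups covered the same range, and the gene was not called (log2 fold change 0.32, SE 0.24, adjusted p = 0.30). Its relative Slc1a4, which encodes the alanine, serine and cysteine exchanger ASCT1, averaged 17.5 ± 1.73 CPM in DR and 21.5 ± 4.51 CPM in AL (SD, n = 4 and 5; log2 fold change −0.30, SE 0.16, adjusted p = 0.15). It passed the threshold as lower in DR when AL replicate 5 was left out (log2 fold change −0.41, adjusted p = 0.018). The ratio of Slc1a5 to Slc1a4 differed by 0.55 on the log2 scale and did not pass (exact two-sided permutation test, p = 0.0635, adjusted p = 0.0998).

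The glutamate carriers of Slc1 were scarce. Slc1a6, which encodes EAAT4, known from Purkinje cells of the cerebellum, was at 1.77 ± 0.0794 CPM in DR and 0.996 ± 0.221 CPM in AL (SD, n = 4 and 5) and rose (log2 fold change 0.83, SE 0.21, adjusted p = 0.0087). Without DR replicates 1 and 2 and AL replicate 1 it missed the threshold (log2 fold change 0.91, adjusted p = 0.052). Slc1a3, which encodes the astrocyte carrier GLAST and marks some dividing stem cells of mouse skin, differed by 0.23 on the log2 scale (SE 0.24, adjusted p = 0.47). Slc1a1, which encodes EAAC1, a carrier of glutamate and cysteine, differed by 0.21 (SE 0.29, adjusted p = 0.59), and 31.9% of its exon bases overlap a gene on the other strand. Neither was called. Their ratio differed by 0.02 on the log2 scale (exact two-sided permutation test, p = 0.968, adjusted p = 0.968).

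The third Slc43 gene, Slc43a3, differs from its relatives in that the human protein carries purine nucleobases. It had 2.80, 2.42, 0.752 and 0.677 CPM in the DR libraries and 1.77, 1.17, 1.07, 0.892 and 0.226 CPM in the AL libraries and was not called (log2 fold change 0.69, SE 0.54, adjusted p = 0.33). DR replicates 1 and 2 and AL replicate 1 were highest, the same libraries as for the endothelial and immune markers, and without these 3 its log2 fold change was −0.25. The ratio of Slc43a1 to Slc43a2 differed by −0.76 on the log2 scale and did not pass (exact two-sided permutation test, p = 0.175, adjusted p = 0.192).

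**Figure D5:**
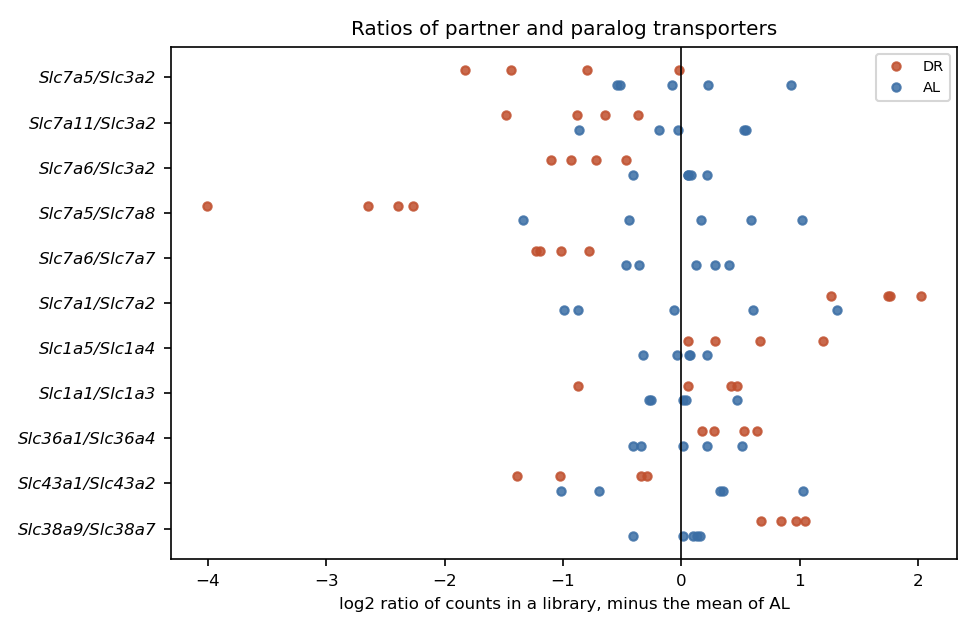
Log2 ratio of the counts of 2 members within each library, minus the AL mean of the pair, for the 11 pairs tested, with DR libraries drawn above AL libraries in each pair. The groups do not overlap for the pairs Slc7a6/Slc3a2, Slc7a5/Slc7a8, Slc7a6/Slc7a7 and Slc38a9/Slc38a7, which had the smallest p that 9 libraries can give.

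In all, 12 pairs of partners or relatives were listed and 11 could be tested, since Slc38a1 had too few reads. The 4 pairs called have an exact p of 0.0159, the smallest that 9 libraries in groups of 4 and 5 allow. Their shared adjusted p of 0.0437 (exact two-sided permutation test) rests on all 4 reaching that smallest p, so no 1 of these calls stands alone. With any library left out the smallest p rises so that none of the 4 passes. The remaining pairs with Slc3a2 did not pass: the ratio to Slc3a2 differed by −1.02 on the log2 scale for Slc7a5 (exact two-sided permutation test, adjusted p = 0.109) and by −0.84 for Slc7a11 (adjusted p = 0.0998).

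The 14 untested members had at most 26 reads in any library. Slc7a12, Slc7a13 and Slc7a14 had no read in any of the 9 libraries. The highest were Slc36a2, a proton-coupled glycine and proline carrier of kidney, with 54 reads over all DR libraries and 17 over all AL libraries, and Slc38a1, given above. Slc38a5 had 13 reads in DR and 20 in AL, and Slc7a15 had 3 in DR and 17 in AL. Slc1a2, Slc1a7, Slc36a3, Slc38a8, Slc38a11, Slc7a9 and Slc7a10 had between 0 and 7 reads in each diet. At this depth no difference could be examined for these genes.

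Other genes of amino acid handling are given from lists, to be read beside the 19.0% and 21.7% of all tested genes called higher and lower. Of 7 tested plasma membrane amino acid transporters outside the 6 families, 1 rose and 1 fell. The one that rose, Slc6a6, encodes the taurine transporter, and averaged 6105 ± 690 CPM in DR and 2162 ± 273 CPM in AL (SD, n = 4 and 5; log2 fold change 1.498, adjusted p = 4.6e-05). The one that fell, Slc6a17, encodes a neutral amino acid carrier of synaptic vesicles (log2 fold change −2.37, adjusted p = 2.3e-04). None of 3 tested peptide transporters was called; the 3, Slc15a1, Slc15a2 and Slc15a4, had log2 fold changes of −0.09, 0.32 and −0.03.

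Of 3 other tested lysosomal exporters, 2 rose: Pqlc2, which exports cationic amino acids (log2 fold change 0.95, adjusted p = 1.7e-04), and Ctns, which exports cystine (log2 fold change 0.50, adjusted p = 0.0033). Of 14 mitochondrial carriers, 3 rose and 7 fell. Slc25a39, needed for glutathione import into mitochondria, fell by 0.89 on the log2 scale (adjusted p = 1.3e-04). Slc25a44, a carrier of branched-chain amino acids, and Sfxn2 rose, with log2 fold changes of 0.49 and 0.72 (adjusted p = 6.9e-04 and 7.1e-04).

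Of 27 tested genes that relay amino acid supply to mTORC1, 8 rose and 7 fell. The leucine-sensor family member Sesn1 rose (log2 fold change 1.499, adjusted p = 1.4e-05), as did Flcn, a GTPase-activating protein for the Rag GTPases (0.97, adjusted p = 4.4e-05), and B630005N14Rik, the older symbol of the methionine-cycle sensor Bmt2 (0.95, adjusted p = 9.1e-05). Those that fell included Sesn3, of the same family as Sesn1 (log2 fold change −0.89, adjusted p = 0.0024), and Wdr59, Nprl2 and Kptn (−1.04, −0.93 and −0.86), members of the complexes that control the Rag GTPases. Of 19 tested genes of the ATF4 programme, 6 rose and 6 fell, and Atf4 itself had a log2 fold change of −0.19 and was not called (adjusted p = 0.56). Aldh18a1 fell by 2.60 on the log2 scale, while Cth and Pck2 rose by 1.64 and 0.81. The others that fell were Mthfd2, Psat1, Phgdh, Atf5 and Asns (log2 fold changes −2.91, −1.79, −0.86, −0.73 and −0.70). The others that rose were Nupr1, Eif2ak3, Eif2ak4 and Cebpg (0.71, 0.51, 0.49 and 0.38).

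Of 14 enzymes of glutamine, glutamate and proline metabolism, 3 rose and 7 fell. Glul, glutamine synthetase, averaged 598 ± 127 CPM in DR and 28.2 ± 3.997 CPM in AL (SD, n = 4 and 5; log2 fold change 4.40, adjusted p = 1.8e-07), with the limit that reads matching its pseudogene Glns-ps1 may be counted for either. Prodh, which starts proline breakdown, rose by 2.58 on the log2 scale (adjusted p = 8.2e-08), and Pycr1 and Aldh18a1, which make proline, fell by 3.02 and 2.60 (adjusted p = 2.1e-06 and 1.4e-05). Of 10 glutathione genes, 2 rose and 1 fell: Dpep1, a dipeptidase that cleaves cysteinylglycine, rose by 5.15 on the log2 scale (adjusted p = 1.8e-06), Gclc, the catalytic subunit of the first step of glutathione synthesis, rose by 0.68 (adjusted p = 0.011; 0.46 without DR replicates 1 and 2, adjusted p = 0.12, and 0.42 without AL replicate 1 as well, adjusted p = 0.20), and Ggt5 fell by 1.70 with an adjusted p of 0.049 that 14 of 21 other settings took past the threshold. Of 4 tested kinases and ubiquitin ligases known to act on amino acid carriers, Sgk3 and Sgk1 rose, with log2 fold changes of 0.69 and 0.63 (adjusted p = 0.0060 and 0.020), and Nedd4 and Nedd4l had −0.12 and −0.02 and were not called. The Sgk1 call was lost without DR replicate 4 (log2 fold change 0.59, adjusted p = 0.058), and that of Sgk3 without DR replicates 1 and 2 (0.48, adjusted p = 0.080). Without DR replicates 1 and 2 and AL replicate 1 neither passed, at 0.65 for Sgk1 (adjusted p = 0.074) and 0.47 for Sgk3 (adjusted p = 0.13).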

How the data were processed

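The series holds 9 RNA-seq libraries of sorted mouse bulge cells, 4 DR and 5 AL. The deposited files give whole-number read counts per gene symbol; FastQC 0.11.5, HTSeq 0.11.2, TopHat2 2.1.0, Bowtie and the mm9 build are named per the submitters' processing notes. Not given in the sources used here are the annotation and the strand and multiple-mapping settings, and the TruSeq RNA v2 kit does not mark strand, so reads in overlaps of genes on opposite strands cannot be told apart by strand; whether such reads were counted or left out is not known. In each file 6 of 35012 lines name no gene; they held 25.9% to 30.7% of reads and were left out. The 16 pairs of libraries within groups differed beyond counting error, with a chi-square of 19.0 to 85.1 per degree of freedom.

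All 15447 genes past filterByExpr were fitted with edgeR 4.0.16 in R 4.3.3 (TMM, quasi-likelihood F test on diet alone, Benjamini-Hochberg over all tested genes, threshold 0.05). Pairs of members were compared by exact two-sided permutation of log2 count ratios (pseudocount 0.5; scipy 1.17.1). Counts for DR over AL were also simulated over 15447 genes, of which 200 were changed. There, 21% of 1.5-fold and 80% of 2-fold changes were recovered, and 3.81% of calls were false. In the data 40.7% of tested genes were called, a far larger share, so these rates may not carry over. Alternatives were other scalings (DESeq2 1.42.0 size factors, upper quartile, library size), filters, the DESeq2 Wald test, limma 3.58.1 voom (also with quality weights per library), robust dispersion, a threshold of 0.01, a replicate block, and libraries left out.

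Each tested member is named. Values in every library are given for called members whose mean log2 CPM reached 2 and for Slc3a2, Slc7a5, Slc1a5, Slc7a11, Slc38a2, Slc7a1 and Slc38a9; those of Slc7a6, Slc38a3 and Slc43a3 were added after their values were seen. Other lists give their 3 genes of smallest p, and those named beyond that, including Atf4, Sesn3, Wdr59, Nprl2 and Kptn, were chosen after their values were seen. The members and lists were chosen with earlier results of these data known. Motifs and start regions are from RefSeq (GRCm38.p6), exon lengths from GENCODE M21, not the build of the files. Marker lists of melanocytes (0 of 6 tested higher, 3 lower), fibroblasts (1 of 5 higher, 2 lower), differentiated epidermis (2 of 7 higher, 0 lower), sebocytes (0 of 3 higher, 1 lower), hair shaft and matrix (1 of 5 higher, 0 lower), erythroid cells (0 of 1 called) and muscle (none tested) were also read, and of 16 bulge markers 1 was higher and 9 lower.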

Additional observations from a re-analysis of the deposited data

Results flagged for a closer look

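In a group of 4 to 10 libraries, the highest or lowest value of each tested member was set against the gap that chance exceeds in about 1 in 20 groups. Of 56 groups examined, 2 went past it. Slc43a2 in DR replicate 1 was at 108 CPM, below the other DR libraries at 117 to 119 CPM, a gap that stands out since those 3 were so close together. Slc7a5 in AL replicate 4 was at 82.8 CPM, above the other AL libraries at 23.8 to 37.97 CPM; without that library the log2 fold change of Slc7a5 was 0.06 in place of −0.37, and it was called in neither fit.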

How the results depend on the processing

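Under the scalings, filters (but for 1 member below the stricter filter), models and single libraries left out that were run, all 8 members called higher kept their direction and their call; 7 remained called at an adjusted p of 0.01 and without DR replicates 1 and 2. Of the 7 called lower, 3 passed at an adjusted p of 0.01, where 3937 genes passed in all, and 5 to 7 passed with 1 library left out. Without DR replicates 1 and 2 and AL replicate 1, an alternative chosen after seeing the data, 4 of them passed and 7 of the 8 called higher (Slc1a6 was lost), and the log2 ratios of the 4 called pairs were −0.96 (Slc7a6/Slc3a2), −2.85 (Slc7a5/Slc7a8), −1.24 (Slc7a6/Slc7a7) and 0.86 (Slc38a9/Slc38a7), with 0.133 the smallest p possible. With 1 library left out these pairs ran from −0.92 to −0.71, −3.16 to −2.44, −1.17 to −0.95 and 0.78 to 0.95, with the calls lost because fewer splits exist.

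Direction turned for values near 0. Slc38a7 had a log2 fold change of 0.023 with the replicate block, and −0.17 to 0.023 with 1 library left out (0.023 without AL replicate 5, 0.0037 without DR replicate 4). Slc7a5 ran from −0.82 to 0.055 with 1 library left out (0.055 without AL replicate 4). Without DR replicates 1 and 2, Slc43a3 was at −0.52 and Slc7a11 at 0.081, and without AL replicate 1 as well at −0.25 and 0.19. The ratio Slc1a1/Slc1a3 was −0.0055 with a pseudocount of 5, and with 1 library left out it ran from −0.13 (DR replicate 4) to 0.32, with −0.05, −0.04 and −0.12 without AL replicate 2, AL replicate 4 and DR replicate 3. The cause was not tested.

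Deviations of DR and AL libraries with the same replicate number had correlations of 0.0386, 0.132, 0.228 and 0.0289. Of 8 libraries, 3 correlated best with their own number. These values carry no test and cannot settle whether the numbers pair libraries. With the replicate block 8 members were higher and 7 lower, with Slc38a10 lost (−0.20, adjusted p = 0.082) and Slc1a4 gained as lower (−0.41, adjusted p = 0.029), 6433 genes passed, and the ratios were −0.79 (Slc7a6/Slc3a2), −2.94 (Slc7a5/Slc7a8), −0.95 (Slc7a6/Slc7a7) and 0.78 (Slc38a9/Slc38a7), where a paired test of 4 pairs cannot go below 0.125. Exon lengths of the GENCODE basic set, added after seeing the data, moved the share of Slc43a1 among system L carriers to 26.4% in DR and 22.7% in AL. Among the CAT genes they moved the share of Slc7a1 to 61.2% in DR and that of Slc7a2 to 27.6% in DR. In AL these shares became 40.1% and 56.6%, within 1 SD of those given above. Members at or near 1 CPM rest on few reads, and small differences between diets can be missed with 4 and 5 libraries.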
